A study of Mus musculus with 43 samples.

Results

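The MHC class II antigen presentation genes examined here were H2-Aa, H2-Ab1, H2-Eb1, H2-DMa, H2-DMb1, Cd74 and Ciita, 7 genes taken by name from a table of 42349 entries. All 7 had an entry. For 6 of them the entry held that gene alone, and Cd74 shared its entry with the microRNA gene Mir5107. RNA was sequenced in 43 libraries from liver, brain, skeletal muscle and white fat of the inguinal depot (WAT) of female mice aged 15 months. Wild type mice (Irs1+/+) fed ad libitum (WT_AL) had 2 libraries per tissue. Wild type mice kept under 30% dietary restriction for 12 months, begun at 10 weeks of age (WT_DR), had 3 (2 in WAT). Mice with a global knockout of insulin receptor substrate 1 (Irs1-/-) had 3 libraries on each diet (KO_AL and KO_DR). The deletion was global rather than confined to a tissue, and every sample was whole tissue.

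MHC class II molecules are surface proteins made of an alpha and a beta chain that show peptides from engulfed proteins to CD4+ T cells. They are made mainly by B cells, dendritic cells and macrophages, and interferon gamma can induce them in other cells. In the mouse, H2-Aa and H2-Ab1 encode the chains of the A molecule and H2-Eb1 the beta chain of the E molecule. Cd74 encodes the invariant chain, which fills the peptide groove while the molecule travels through the cell. H2-DMa and H2-DMb1 encode the chains of H2-DM, which exchanges the remnant of the invariant chain for peptide. Ciita encodes the coactivator that switches on the class II promoters. It does not bind DNA itself but sits on the RFX, CREB and NF-Y factors, which read the X and Y boxes just before the start site.

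The entries of 5 members lay on chromosome 17 of GRCm38 within the H2 locus, H2-DMa at 34135182-34139101, H2-DMb1 at 34153072-34160230, H2-Ab1 at 34263209-34269418, H2-Aa at 34282744-34287827 and H2-Eb1 at 34305877-34316199. Ciita lay on chromosome 16 at 10488178-10543054. These ranges cover exons and introns. In the GENCODE annotation of the same build, Gm20513 overlaps H2-Eb1 and Dexi overlaps Ciita, both on the opposite strand, and the Ciita entry ends at the last base of Dexi. Whether strand was used in counting is not given in the sources used here, so reads of these overlapping genes cannot be told apart. H2-DMb1 and H2-DMb2 are close copies, as are H2-Eb1 and H2-Eb2, and their separate values are uncertain where reads fit both.

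RefSeq promoters (GRCm38.p6) were held here for 4 of the 7 members (H2-Aa, H2-Eb1, H2-DMa and H2-DMb1) and for H2-Oa, H2-Ob, H2-DMb2 and H2-Eb2. The 150 bases before the start site are shown for H2-Aa (chr17:34287824-34287973, minus strand) and H2-Eb1 (chr17:34305717-34305866, plus strand), the members that differed between groups in muscle, and for H2-Ob (chr17:34238755-34238904, plus strand), a further class II chain gene. They are read 5′ to 3′ towards the gene. Capitals mark the NF-Y box CCAAT or its reverse complement ATTGG, the CREB site TGACGTCA, and CCTAGCAAC, a core of the X box.
H2-Aa: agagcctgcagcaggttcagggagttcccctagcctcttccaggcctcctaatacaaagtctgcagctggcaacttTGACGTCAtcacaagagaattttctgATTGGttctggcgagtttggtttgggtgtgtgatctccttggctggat
H2-Eb1: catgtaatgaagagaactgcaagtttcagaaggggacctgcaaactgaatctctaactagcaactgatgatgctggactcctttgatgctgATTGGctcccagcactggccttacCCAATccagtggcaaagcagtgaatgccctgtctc
H2-Ob: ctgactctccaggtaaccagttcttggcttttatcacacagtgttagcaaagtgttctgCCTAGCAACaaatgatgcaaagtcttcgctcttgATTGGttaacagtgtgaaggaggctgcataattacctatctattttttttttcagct
In H2-Aa the ATTGG began 48 bases and the TGACGTCA 74 bases before the start site. In H2-Eb1 an ATTGG began at 59 bases and a CCAAT at 35. In H2-Ob, CCTAGCAAC began at 91 bases and ATTGG at 57. The NF-Y box also stood 61 bases before the start site in H2-DMb1, 90 in H2-DMb2, 43 in H2-Oa and 100 in H2-Eb2. Of the H2-DMa start sites in RefSeq, which lie upstream of the entry used here, 1 had no match and 1 had ATTGG at 198 bases. Over the 250 bases before the start site of 32851 RefSeq promoters, CCAAT was found on either strand in 33.8%, TGACGTCA in 1.55% and CCTAGCAAC in 0.694%. With any base at its last 2 positions (CCTAGCANN, which includes CCTAGCAAC) the X box core was in 3.41%, and among these genes also in H2-DMb1 and H2-DMb2. The matches describe these letters only.

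Values are FPKM, fragments per kilobase of gene scaled to the library, given by the authors as 1 value per group with a 95% interval, printed here in brackets. An SD was taken from that interval, and over the 16 groups the median SD was 27.2% to 62.3% of the FPKM. Differences were tested with a Wald test on the log2 ratio, and those under an FDR of 10% are called differentially expressed. With 1 value per group no exact test can be had, so the size, SE, 95% interval and call are given in place of a p value. The level of Irs1 was 1.62 to 6.56 FPKM in the WT groups and 2.58 to 6.31 FPKM in those labelled KO, which goes against the labels. The deleted stretch of the gene is not given in the sources used here, so KO_AL and KO_DR mean the groups labelled so. Markers of liver, muscle, brain and fat summed highest in the tissue of each label. In muscle, 5 liver markers summed to 1994 FPKM in WT_DR against 42.1 to 206 in the other groups, and 5 red blood cell markers to 949.8 and 1553 FPKM in the WT and 11582 and 20283 in the KO groups. Alb, Apoa1, Serpina1a and Ttr of the liver list passed as higher in WT_DR than in WT_AL muscle, and Hba-a1 and Hbb-bt of the red blood cell list in KO_AL and KO_DR, in no case with a t distribution. In whole tissue, fewer cells of a type and less RNA per cell cannot be told apart.

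Across tissues, each of the 7 members was most abundant in WAT, and those other than the H2-DM genes were least abundant in brain in all 4 genotype and diet groups. In the WT_AL groups H2-Aa was 512 (287 to 737) FPKM in WAT, 142 (52.4 to 232) in muscle, 60.6 (25.4 to 95.9) in liver and 3.78 (0 to 8.43) in brain. H2-Ab1 followed the same order, with 365 FPKM in WAT, 110.4 in muscle, 63.0 in liver and 7.12 in brain. H2-Eb1 did so too, at 339, 60.6, 37.2 and 2.94 FPKM. For H2-Aa, muscle less WAT was -1.85 (SE 0.55, 95% interval -2.94 to -0.76) log2 units and passed. Liver and brain were also separated for it, whereas muscle and liver were not. The Cd74 entry, on chromosome 18 at 60803848-60812646, was 887 (0 to 3304) FPKM in WAT, 84.6 in liver, 78.3 in muscle and 5.20 in brain. Ciita was the least abundant member, at 3.29 FPKM in WAT, 2.00 in muscle, 0.967 in liver and 0.0378 in brain. In brain KO_DR it was listed at 0, and it reached 1 FPKM in 5 of the 16 groups, whereas each of the other members did so in all 16.

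**Figure D1:**
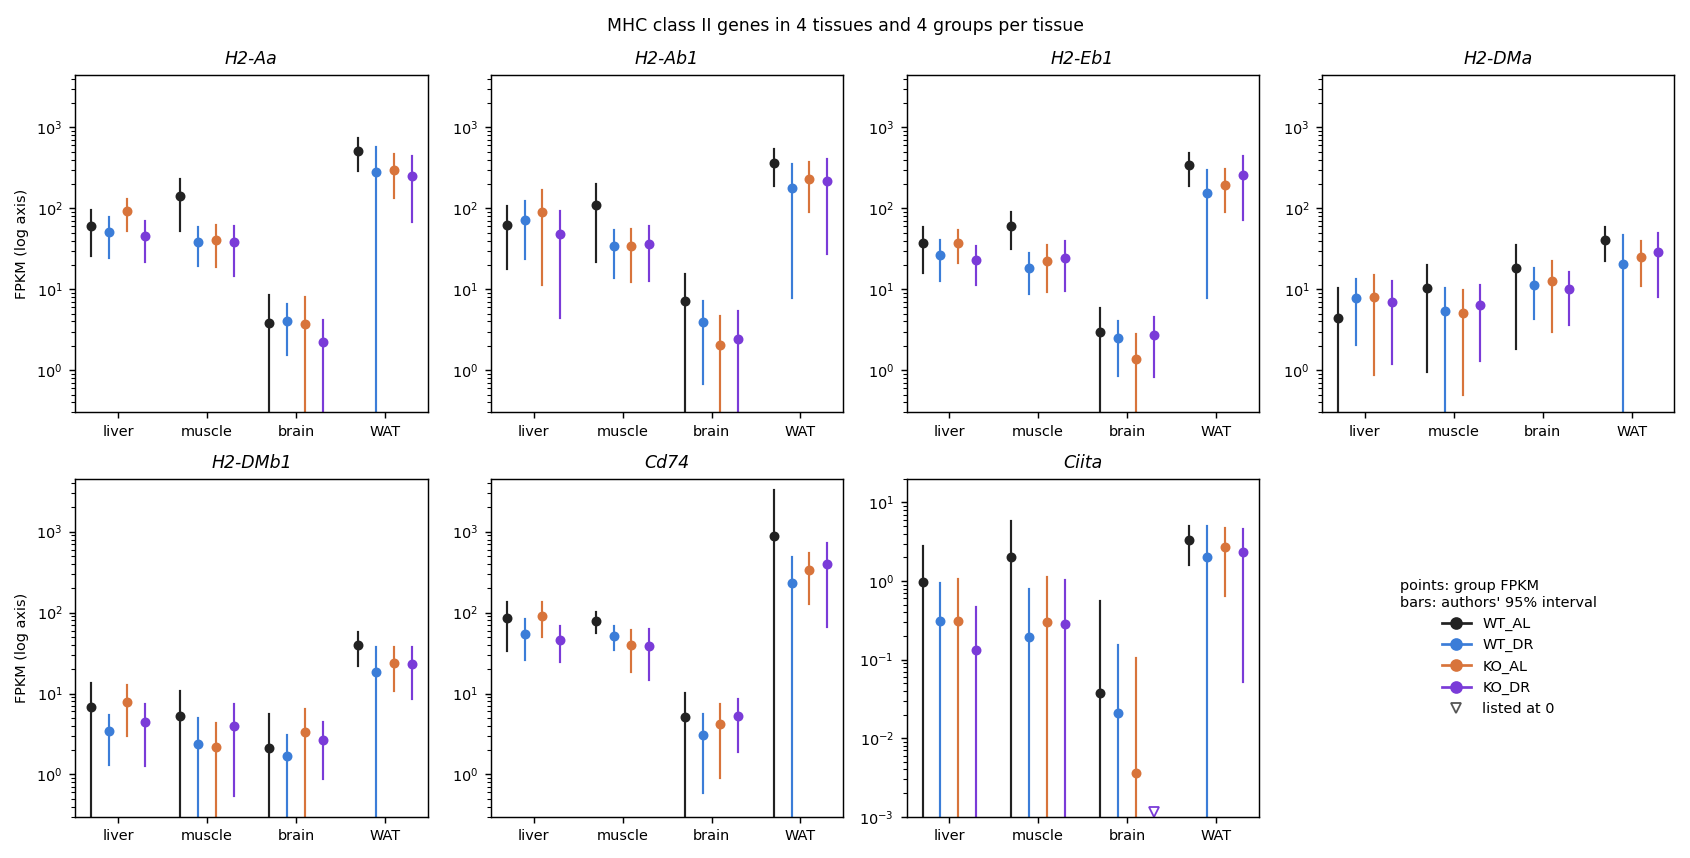
Each panel plots the FPKM of 1 member on a log axis in liver, skeletal muscle, brain and WAT, with 1 point per group in the order WT_AL, WT_DR, KO_AL, KO_DR and bars for the authors' 95% interval. Bars that reach the bottom edge run to or below the lowest value drawn, and the open triangle marks a value listed at 0. H2-Aa runs from 2.25 FPKM in brain to 512 in WAT, and the WT_AL point is the highest of its tissue for all 7 genes in muscle and WAT.

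In tests between tissues within a genotype and diet group, 97 of 157 differences of the members passed. Of these 23 were left with a t distribution for the few libraries. The tests treated tissues as independent, although they appear to come from the same mice. WAT was above brain in 21 of 27 tests, where it was for 11% of all entries tested. WAT was above muscle in 22 of 28 (12.1% of entries) and above liver in 19 of 28 (9.93%). Liver was above brain in 16 of 24 (17.1%) and muscle above brain in 16 of 25 (13.8%). Liver was above muscle in 3 of 25, a share near that of all entries (15.8%). These 3 were H2-Aa, H2-DMb1 and Cd74 in KO_AL, and liver and muscle were separated for no member in WT_AL, WT_DR or KO_DR. By gene, H2-Aa passed in 21 of its 24 tests, H2-Eb1 in 20, H2-Ab1 and Cd74 in 18 each, H2-DMb1 in 13 and H2-DMa in 7. Ciita passed in 0 of 13.

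The H2-DM genes were lower than the A and E chain genes in WAT, liver and muscle, and H2-DMa had its own order over tissues. In the WT_AL groups it was 40.9 (22.2 to 59.5) FPKM in WAT, 18.3 (1.82 to 34.9) in brain, 10.4 (0.943 to 19.9) in muscle and 4.46 (0 to 10.4) in liver. In WT_DR, KO_AL and KO_DR brain was also second, at 11.3, 12.7 and 10.1 FPKM. In brain H2-DMa thus had the highest level of the 7 members in every group, while its partner H2-DMb1 was 1.67 to 3.36 FPKM there. None of the 8 tests of H2-DMa in brain against liver or muscle passed, the largest difference being liver less brain in WT_AL, at -2.04 (SE 1.16, 95% interval -4.31 to 0.23) log2 units. Brain and WAT were separated only in KO_DR, at 10.1 against 28.7 FPKM, a log2 difference of -1.51 (SE 0.70, 95% interval -2.88 to -0.15). H2-DMb1 in the WT_AL groups was 39.8 FPKM in WAT, 6.86 in liver, 5.24 in muscle and 2.13 in brain.

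The ratio of H2-DMa to H2-DMb1, whose products pair, was 1.03 to 1.25 in the 4 WAT groups, 0.650 to 2.27 in liver, 1.60 to 2.35 in muscle and 3.74 to 8.62 in brain. The 4 brain groups lay above all groups of the other tissues. The SE of a log2 ratio was 0.460 to 1.36, and the tissues were not tested against each other for it. The ratio of H2-Aa to H2-Ab1, the other pair of chains among the members, was 1.16 to 1.54 in WAT, 0.698 to 1.02 in liver, 1.03 to 1.29 in muscle and 0.531 to 1.83 in brain.

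**Figure D2:**
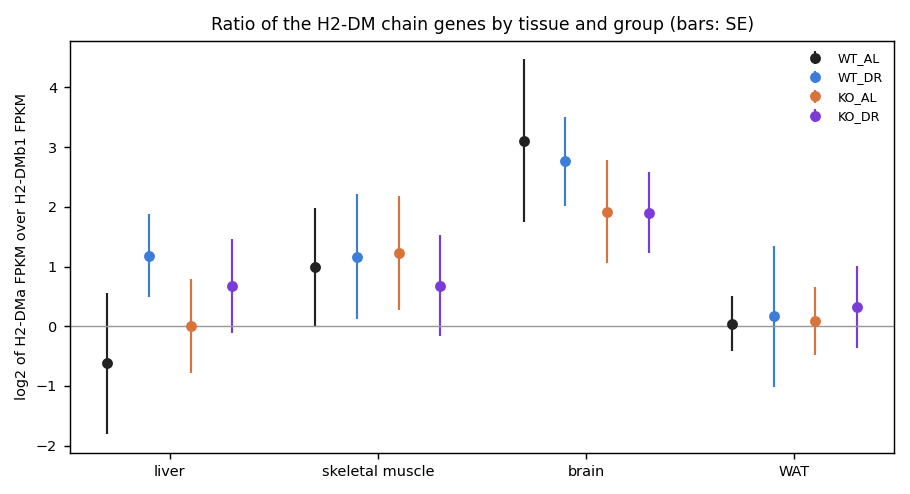
Points give the log2 of the H2-DMa FPKM over the H2-DMb1 FPKM in each of the 16 groups, by tissue, and bars give 1 SE. The 4 brain groups lie above all the others, at linear ratios of 3.74 to 8.62, and the 4 WAT groups lie close to 0 on the log2 axis.

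Skeletal muscle was the tissue in which members passed the test between groups. H2-Aa and H2-Eb1 were higher in WT_AL than in WT_DR, and the values of the KO groups lay near those of WT_DR. H2-Aa was 142 (52.4 to 232) FPKM in WT_AL, 38.8 (19.6 to 58.0) in WT_DR, 40.6 (18.8 to 62.4) in KO_AL and 38.0 (14.7 to 61.3) in KO_DR. H2-Eb1 was 60.6 (31.2 to 90.0) FPKM in WT_AL, 18.4 (8.84 to 27.9) in WT_DR, 22.0 (9.34 to 34.7) in KO_AL and 24.5 (9.61 to 39.4) in KO_DR. H2-Ab1 was 110.4 (22.0 to 199) FPKM in WT_AL, 34.1 (13.9 to 54.4) in WT_DR, 33.8 (12.1 to 55.4) in KO_AL and 36.7 (12.5 to 60.9) in KO_DR. For these 3 chains WT_AL stood above the other 3 groups, which were close together, but only for H2-Eb1 in WT_DR did an interval lie wholly below that of WT_AL. All 3 comparisons with WT_AL share its 2 libraries.

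In WT_DR against WT_AL in muscle, 2 of the 7 members were differentially expressed, both lower, where 1.4% of 14089 entries tested were (0.603% lower). H2-Aa was 3.66-fold lower in WT_DR, a log2 difference of -1.87 (SE 0.58, 95% interval -3.01 to -0.74). H2-Eb1 was 3.30-fold lower, a log2 difference of -1.72 (SE 0.51, 95% interval -2.73 to -0.72). Neither passed at an FDR of 5% or with a t distribution for the few libraries, and H2-Aa also did not pass with no minimum FPKM, after centring on the median of all entries or by intervals that do not overlap. The difference of H2-Ab1 was of like size with a larger error, -1.69 (SE 0.72, 95% interval -3.10 to -0.28), and did not pass. The median log2 difference of the 7 members was -1.69, against -0.063 over all entries tested.

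The remaining members in muscle also had lower values in WT_DR but did not pass. Cd74 was 78.3 (55.3 to 101) FPKM in WT_AL, 51.1 (34.1 to 68.2) in WT_DR, 39.7 (18.4 to 61.0) in KO_AL and 38.8 (14.8 to 62.9) in KO_DR, and its log2 difference in WT_DR, -0.62 (SE 0.32, 95% interval -1.24 to 0.013), was smaller in size than those of the A and E chains. H2-DMa was 10.4, 5.32, 5.16 and 6.31 FPKM in the same order, and H2-DMb1 was 5.24, 2.37, 2.19 and 3.94 FPKM. Ciita was 2.00 (0 to 5.79) FPKM in WT_AL and 0.195 to 0.297 in the other 3 groups, with a log2 difference of -3.36 (SE 2.58) in WT_DR. All 7 members had their highest value in WT_AL in muscle.

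In KO_AL against WT_AL in muscle, 0 of 7 members were differentially expressed by the Wald test, where 0.681% of entries tested were. Of the members 4 had an unadjusted p under 0.05 by that test, as had 449 of the 14102 entries tested. The log2 difference was -1.81 (SE 0.60, 95% interval -2.98 to -0.64) for H2-Aa. It was -1.46 (SE 0.54, 95% interval -2.52 to -0.39) for H2-Eb1 and -1.71 (SE 0.74, 95% interval -3.16 to -0.26) for H2-Ab1. In KO_DR against WT_AL, 0 of 7 passed (0.875% of entries). Again 4 had an unadjusted p under 0.05 by the Wald test, as had 877 of 14054 entries. H2-Aa differed by -1.90 (SE 0.63, 95% interval -3.15 to -0.66). The number of members called depends on how the authors' interval is read. With the SD divided by the square root of the number of libraries, H2-Aa, H2-Ab1, H2-Eb1 and Cd74 passed in each of the 3 comparisons with WT_AL in muscle, when 3.64%, 6.37% and 9.27% of entries did in KO_AL, WT_DR and KO_DR.

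**Figure D3:**
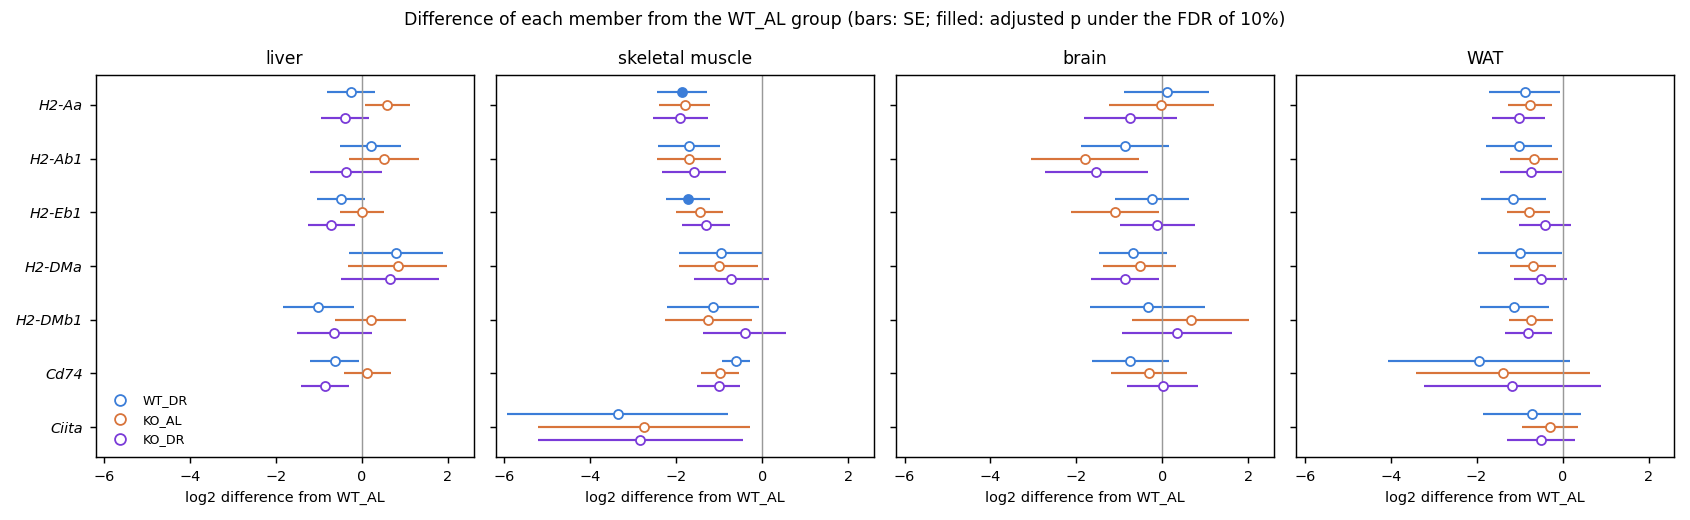
Each panel is a tissue, each line of points a member, and the horizontal axis gives the log2 difference of WT_DR, KO_AL or KO_DR from WT_AL, with bars of 1 SE and filled points where the FDR was under 10%. All points in muscle and WAT lie left of 0, and the filled points are H2-Aa and H2-Eb1 of WT_DR in muscle, at -1.87 and -1.72. Ciita is absent in liver and brain, where it was not tested.

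Among the other class II chain genes in muscle, WT_AL was again highest. H2-Ob and H2-Oa encode the chains of H2-O, an inhibitor of H2-DM made mainly in B cells. H2-Ob was 10.2 FPKM in WT_AL, 1.32 in WT_DR, 0.761 in KO_AL and 1.02 in KO_DR, and H2-Oa was 4.23, 0.459, 0.665 and 0.762 FPKM in the same order. H2-DMb2, a further beta chain gene of H2-DM, was 5.93, 1.08, 0.921 and 0.589 FPKM. It was differentially expressed against WT_AL in KO_AL (log2 difference -2.69, SE 0.61) and in KO_DR (-3.33, SE 0.63), though not with a t distribution. In WT_DR, 0 of 3 chain genes tested passed. H2-Eb2 was 0.931 FPKM in WT_AL and at most 0.131 in the others, and H2-Ea-ps, named as a pseudogene of the E alpha chain, was listed at 0 in all 16 groups.

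Of the 11 B cell and plasma cell markers in muscle, 6 were highest in WT_AL and 4 in KO_AL. Cd79a, a chain of the B cell receptor complex, was 9.46 FPKM in WT_AL, 0.932 in WT_DR, 1.00 in KO_AL and 1.93 in KO_DR, and was differentially expressed in all 3 comparisons with WT_AL, by -3.34, -3.24 and -2.29 log2 units in WT_DR, KO_AL and KO_DR. Ms4a1, which encodes the B cell surface protein CD20, was 3.42 FPKM in WT_AL and 0.280 to 0.623 in the others, and passed in WT_DR. With a t distribution none of these calls was left. The antibody gene Igkc was highest in KO_AL, at 905 FPKM against 433 in WT_AL. The summed level of the list was highest in KO_AL too, at 615 FPKM in WT_AL, 301 in WT_DR, 1189 in KO_AL and 484 in KO_DR.

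All 7 lymph node markers were highest in the WT_AL muscle group, and they summed to 42.6 FPKM in WT_AL, 14.8 in WT_DR, 12.1 in KO_AL and 19.4 in KO_DR. Glycam1, a ligand for L-selectin on the vessels of lymph nodes, was 8.69 FPKM in WT_AL against 0.102 to 3.55, and Cxcl13, the chemokine of B cell follicles, was 8.32 FPKM against 0.771 to 1.61. None of the lymph node markers passed the test in any comparison with WT_AL in muscle. Macrophage markers did not have this order, with 2 of 11 highest in WT_AL and a sum of 162 FPKM in WT_AL, 125 in WT_DR, 197 in KO_AL and 91.4 in KO_DR. Of 7 dendritic cell markers 3 were highest in WT_AL, with sums of 4.40, 2.70, 3.24 and 4.58 FPKM in the same order. All 5 microglia markers were highest in WT_AL, at a low sum of 6.68 FPKM against 4.65, 4.32 and 4.15. Among adipocyte markers, Lep (leptin) was 78.7 FPKM in WT_AL and 4.03 to 12.4 in the others, and passed as lower in all 3, in none of them with a t distribution. The adipocyte sum was 1301 FPKM in WT_AL, 359 in WT_DR, 1041 in KO_AL and 1280.0 in KO_DR. The part of lymphoid, fat or liver tissue in the muscle values of the class II genes was not tested, and no muscle group could be left out or split, since the table gives 1 value per group.

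**Figure D4:**
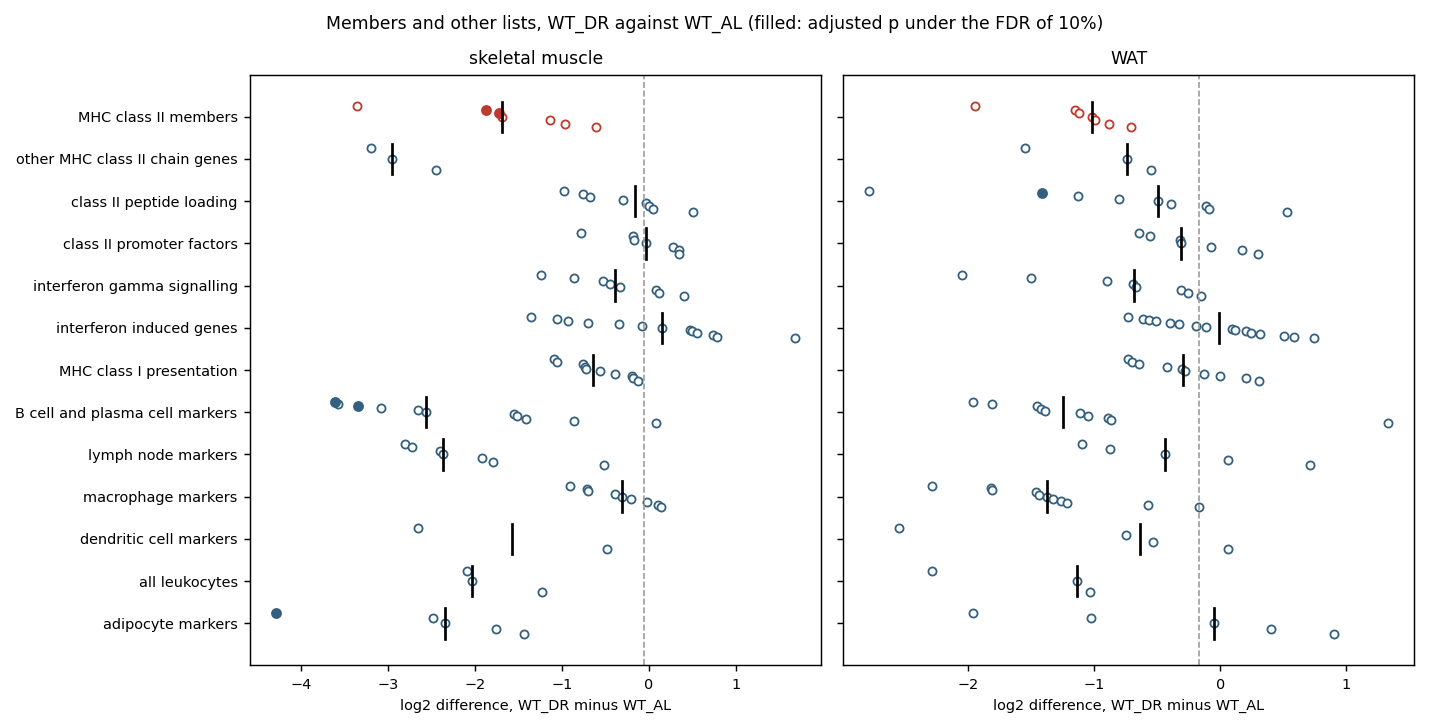
Points are genes or shared entries of each list in WT_DR against WT_AL, in muscle and WAT, the horizontal axis gives the log2 difference, the black bars the median of a list and the dashed line the median over all entries tested. Filled points were under the FDR of 10%. In muscle the medians are -1.69 for the members, -2.96 for the other class II chain genes, -2.57 for B cell and plasma cell markers and -0.32 for macrophage markers. In WAT they are -1.02, -0.74, -1.25 and -1.37.

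In WAT the members again all had their highest value in WT_AL, but no difference passed. The WT_AL libraries of WAT and muscle appear to come from the same mice, so this is not an independent repeat. H2-Aa was 512 (287 to 737) FPKM in WT_AL, 277 (0 to 572) in WT_DR, 301 (135 to 468) in KO_AL and 253 (67.7 to 438) in KO_DR. H2-Eb1 was 339 (188 to 489) FPKM in WT_AL, 153 (7.69 to 298) in WT_DR, 196 (89.3 to 302) in KO_AL and 256 (72.7 to 439.5) in KO_DR. Cd74 was 887, 230.1, 338 and 395 FPKM in the same order, and its other 3 intervals lay inside that of WT_AL. For every member the intervals of the other 3 groups overlapped that of WT_AL. WT_DR was lowest for 6 of the 7 and KO_DR for H2-Aa. H2-Ab1 was 365, 179.8, 231 and 218 FPKM, H2-DMa 40.9, 20.5, 25.4 and 28.7, and H2-DMb1 39.8, 18.3, 24.0 and 22.9. Ciita, whose SD was smallest against its level in this tissue, was 3.29 (1.61 to 4.97) FPKM in WT_AL, 2.01 (0 to 5.03) in WT_DR, 2.68 (0.655 to 4.70) in KO_AL and 2.33 (0.0517 to 4.61) in KO_DR.

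In WT_DR against WT_AL in WAT 0 of 7 members passed the Wald test (0.57% of entries did), 0 had an unadjusted p under 0.05, and their median log2 difference was -1.02, against -0.17 over all entries. In KO_AL against WT_AL, 0 of 7 passed (1.29% of entries), with a median of -0.73 against -0.061, and in KO_DR 0 of 7 (1.26%), with a median of -0.74. In neither had a member an unadjusted p under 0.05. The difference of H2-Aa in WT_DR was -0.89 (SE 0.83, 95% interval -2.52 to 0.74) log2 units, an interval that holds both a rise and a fall.

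Of 11 macrophage markers in WAT 10 had their highest value in WT_AL, and they summed to 1221 FPKM in WT_AL, 457 in WT_DR, 656 in KO_AL and 606 in KO_DR. Cd68, a lysosomal protein of macrophages, was 50.0, 10.2, 22.7 and 18.8 FPKM in the same order. No macrophage marker passed the test against WT_AL. The sum of B cell and plasma cell markers was 7238 FPKM in WT_AL, 2525 in WT_DR, 5586 in KO_AL and 3482 in KO_DR. It was highest in WT_AL, but of the 11 markers 4 were highest there and 6 in KO_AL, and the median level of the list was 6.36 FPKM in WT_AL and 8.88 in KO_AL. The lymph node sum was 23.1 FPKM in WT_AL, 20.1 in WT_DR, 55.9 in KO_AL and 46.4 in KO_DR, and Ccl21a, a chemokine that draws lymphocytes into lymph nodes, passed as higher in KO_AL than in WT_AL, by 3.11 log2 units (SE 0.83).

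Of 5 skeletal muscle markers in WAT, 4 had their lowest value in WT_AL and 1 had its highest value there. Ckm, the creatine kinase of muscle, was 2.204 FPKM in WT_AL, 114 in WT_DR, 148 in KO_AL and 81.0 in KO_DR, and passed as higher in all 3 other groups, by 5.70, 6.07 and 5.20 log2 units in WT_DR, KO_AL and KO_DR. Myh4, a myosin heavy chain of fast muscle fibres, was 0.0699, 20.6, 55.0 and 30.3 FPKM in the same order and passed in all 3, while Mylpf, a myosin light chain, passed in KO_AL. The 5 muscle markers summed to 521 FPKM in WT_AL, 337 in WT_DR, 943 in KO_AL and 570.2 in KO_DR, so that their sum was lowest in WT_DR. Among liver markers, Alb and Serpina1a passed as lower in KO_DR than in WT_AL, with log2 differences of -2.84 and -2.95. With a t distribution none of these marker calls was left. The part of immune cells, muscle or liver RNA in the WAT values of the members was not tested.

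In liver, 6 of the 7 members had their highest value in KO_AL and 5 their lowest in KO_DR. In KO_AL against WT_AL the median log2 difference of the members tested was 0.35, against 0.16 over all entries. H2-Eb1 (0.001) and Cd74 (0.12) lay under that median of all entries. H2-Aa was 60.6 (25.4 to 95.9) FPKM in WT_AL, 50.6 (24.0 to 77.2) in WT_DR, 91.4 (51.8 to 131) in KO_AL and 46.0 (21.9 to 70.2) in KO_DR. Cd74 was 84.6 (33.5 to 136) FPKM in WT_AL, 54.4 (25.6 to 83.1) in WT_DR, 92.0 (50.5 to 133) in KO_AL and 46.3 (24.3 to 68.3) in KO_DR. The intervals of the groups overlapped for both genes. H2-Ab1 was 63.0, 72.5, 89.4 and 48.8 FPKM and H2-Eb1 37.2, 26.3, 37.3 and 22.7. H2-DMb1 was 6.86, 3.40, 7.89 and 4.39 FPKM, and H2-DMa, the member that was lowest in WT_AL, ranged from 4.46 there to 7.92 in KO_AL. Ciita stayed under 1 FPKM in all 4 liver groups and was not tested between groups.

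No liver difference passed. In KO_DR against KO_AL, 0 of 6 members tested were differentially expressed by the Wald test (0.611% of entries were). By that test 2 members had an unadjusted p under 0.05, as had 394 of 13747 entries. The 2 members were Cd74, with a log2 difference of -0.99 (SE 0.47, 95% interval -1.92 to -0.063), and H2-Aa, with -0.99 (SE 0.49, 95% interval -1.95 to -0.027). All 6 were lower in KO_DR, with a median of -0.86 against -0.03 over all entries. Of 11 macrophage markers 10 were lower too, with a median of -0.91, and none of them passed. The macrophage sum was 532 FPKM in KO_AL and 274 in KO_DR, while the sum of markers of Kupffer cells, the resident macrophages of liver, was 71.3 and 60.1. In KO_AL, WT_DR and KO_DR against WT_AL, 0 of 6 passed (0.316%, 0.236% and 0.272% of entries), with 0 unadjusted p under 0.05. The 5 skeletal muscle markers summed in liver to 2.44 FPKM in WT_AL, 9.42 in WT_DR, 71.5 in KO_AL and 27.1 in KO_DR. The 5 liver markers summed to 35518, 95315, 79857 and 93533 FPKM in the same order. The part of immune cells or muscle RNA in the liver values of the members was not tested.

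In brain the intervals of the members were wide against their levels. H2-Aa was 3.78 (0 to 8.43) FPKM in WT_AL, 4.06 (1.56 to 6.55) in WT_DR, 3.72 (0 to 7.99) in KO_AL and 2.25 (0.294 to 4.20) in KO_DR. H2-Ab1 was 7.12, 3.89, 2.03 and 2.46 FPKM, H2-Eb1 2.94, 2.47, 1.37 and 2.70, and Cd74 5.20 in WT_AL and 3.10 to 5.23 in the others. The intervals overlapped that of WT_AL for each of them. In KO_AL, WT_DR and KO_DR against WT_AL, 0 of 6 members tested passed the Wald test (0.203%, 0.224% and 0.105% of entries), with 0 unadjusted p under 0.05. The microglia marker sum was 70.8 FPKM in WT_AL, 79.2 in WT_DR, 88.6 in KO_AL and 56.5 in KO_DR. The macrophage marker sum was 319, 270, 261 and 240 FPKM in the same order. H2-DMa (18.3, 11.3, 12.7 and 10.1 FPKM) was highest in WT_AL and lowest in KO_DR, as the macrophage sum was. H2-DMb1 (2.13, 1.67, 3.36 and 2.69 FPKM) was highest in KO_AL, as the microglia sum was. It was lowest in WT_DR, whereas the microglia sum was lowest in KO_DR. For both H2-DM genes the intervals of the groups overlapped, so these orders are not separated from error. The part of macrophages and microglia in the brain values of the members was not tested.

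When KO_AL and WT_DR were set directly against each other, 0 members passed in any tissue by the Wald test, where 0.89% of entries did in liver, 1.89% in muscle, 0.577% in brain and 0.642% in WAT, and 0 had an unadjusted p under 0.05. In muscle their H2-Aa levels were 40.6 and 38.8 FPKM, a log2 difference of 0.066 (SE 0.53, 95% interval -0.97 to 1.10). For H2-Eb1 it was 0.26 (SE 0.56, 95% interval -0.83 to 1.36). These intervals are wide enough to hold a difference of about 2-fold, so the groups are not shown to be alike. In WAT all 7 members had higher values in KO_AL than in WT_DR, by 0.12 to 0.56 log2 units, with the median over all entries at 0.14, and after subtracting that median H2-Aa was lower in KO_AL. Outside the members, H2-DMb2 passed there, by 1.47 log2 units (SE 0.36), as did March1, a ubiquitin ligase that acts on class II molecules, by 1.45 (SE 0.33). In liver the macrophage marker Cd14 and the leukocyte gene Laptm5 passed as higher in KO_AL, and in muscle Igkc did. With a t distribution none of these was left.

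Restriction of KO mice and knockout under restriction gave no differentially expressed member. In KO_DR against WT_DR, 0 members passed (0.288% of entries in liver, 2.23% in muscle, 1.16% in brain and 0.283% in WAT), and in KO_DR against KO_AL 0 passed outside liver too (0.5% in muscle, 0.365% in brain and 0.707% in WAT). In both, 0 members had an unadjusted p under 0.05 by the Wald test, other than the 2 in liver above. H2-Aa in the muscle of KO mice was 40.6 FPKM on the AL diet and 38.0 under DR, whereas in WT mice it was 142 and 38.8.

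The interaction asks whether the genotypes differed by another amount on the restricted diet than when fed ad libitum. For it 0 members passed, against 0.086%, 0.371%, 0.396% and 0.121% of entries in liver, muscle, brain and WAT. In muscle 2 members had an unadjusted p under 0.05 by the Wald test, as had 334 of 14547 entries. The 2 members were H2-Aa, at 1.78 (SE 0.82, 95% interval 0.16 to 3.39) log2 units, and H2-Eb1, at 1.88 (SE 0.79, 95% interval 0.32 to 3.43). The value was positive for all 7 members in muscle and also for all 7 in WAT (0.51 to 2.17 log2 units there). These tissues appear to come from the same mice. Nor did any member pass for a difference of the KO_AL or WT_DR effect between tissues, where 0.115% of the tests over all entries did. The KO_AL effect on H2-Aa in liver less that in muscle was 2.40 (SE 0.79, 95% interval 0.84 to 3.95) log2 units.

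The lists of other class II pathway genes had medians nearer 0 in muscle than the members. In WT_DR against WT_AL, 0 of 8 peptide loading genes tested passed, with a median log2 difference of -0.16. Of these, Ifi30, the thiol reductase of endosomes, was 9.91 FPKM in WT_AL and 5.02 in WT_DR, and Ctss, the protease that trims the invariant chain, was 6.54 and 3.85. For the factors that bind class II promoters 0 of 7 passed, with a median of -0.039, and Nfya, a subunit of NF-Y, differed most (3.22 and 1.88 FPKM). For interferon gamma signalling 0 of 8 passed, with a median of -0.39, and the cytokine gene Ifng itself was at most 0.189 FPKM in any of the 16 groups. Of the interferon induced entries 0 of 13 passed, 7 with higher and 6 with lower values. For MHC class I presentation 0 of 10 passed, all with lower values and a median of -0.64.

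In WAT, 1 of 9 peptide loading genes was differentially expressed in WT_DR against WT_AL. This was Lgmn, an asparaginyl protease of endosomes, at 21.5 FPKM in WT_AL, 8.08 in WT_DR, 16.5 in KO_AL and 17.3 in KO_DR, with a log2 difference of -1.41 (SE 0.32), a call that was not left with a t distribution. Ctss was 66.2, 9.60, 30.1 and 21.6 FPKM in the same order and did not pass (-2.79, SE 0.95). For interferon gamma signalling 0 of 8 passed, with a median of -0.68, and for the promoter factors 0 of 7, with -0.31.

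The pattern of the members was also set against 16117 entries by Pearson's r over the 16 groups, using log2(FPKM + 1) centred within each tissue and the mean of the 6 members other than Ciita. All groups were normalised together and share the WT_AL libraries of each tissue, so r is a description. The members had r of 0.768 to 0.919 with this mean, which 6 of them enter, and the other 3 ranked chain genes had a median of 0.722. The 10 genes most like it were Pfkfb4, Stam, Tuba1a, Ly86, Sod3, Ndrg1, 5430416O09Rik, Wisp2, Nedd9 and Lpxn, with r from 0.892 to 0.858. Among them Ly86, which encodes the MD-1 protein that pairs with CD180 on B cells and macrophages, was 3.58 FPKM in WT_AL muscle and 1.41 in WT_DR. Sod3 was 31.1 and 4.62 FPKM in these groups, and Wisp2 14.0 and 1.09. None of the 10 was in the lists used here. An entry was compared only if it had at least 1 FPKM in every group of at least 1 tissue. Of the lists, 7 B cell and plasma cell markers and 5 lymph node markers met this, Ms4a1 and Glycam1 not among them. Cxcl13 of the lymph node markers ranked 11 (r 0.854) and Lep of the adipocyte markers 13 (r 0.850), while the adipocyte list had a median r of 0.239. By list, the median r was 0.599 for the 3 genes of all leukocytes, 0.566 for macrophage markers, 0.491 for interferon gamma signalling, 0.466 for B cell and plasma cell markers, 0.475 for lymph node markers, 0.152 for MHC class I presentation, 0.120 for interferon induced genes and 0.0623 for the promoter factors, against 0.0411 over all ranked entries.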

How the data were processed

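The authors trimmed single end Ion Proton reads of polyA RNA with cutadapt 1.5, aligned them to GRCm38 with BBmap and ran Cuffdiff 2.2.1, which corrects for reads that map to several places. They deposited FPKM values, 1 per group and entry, with a 95% interval. Values per library or counts were not used here, so depth is unknown and the errors are those of the authors' interval. Of 42349 entries, 873 join several genes. Where a gene had several entries, the most abundant was used.

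The SD was the upper bound less the FPKM, divided by 2. Log2 ratios were compared by a two-sided Wald test (delta method, normal reference), with Benjamini-Hochberg adjustment over all entries tested in a tissue and comparison and a call at an FDR of 10%. Entries were tested where both FPKM were above 0 with status OK and the higher was at least 1. The members and the lists of other genes were chosen with earlier results of these data known. Genes named were the members, Irs1, the 10 most alike entries, the other chain genes and list genes that were called or had the largest differences. The rule set for naming asked for up to 4 called genes per list and comparison, and not all of these are named. Cd68, Ctss, Cxcl13, Glycam1, Ifng and Igkc were chosen after their values were seen. Alternatives were a smaller SE, an FDR of 5%, a t distribution, pseudocounts of 0.1 and 1, a minimum of 5 FPKM or none, centring on the median, no joined entries, interval overlap and a 2-fold minimum. Python 3.11.15 was used with numpy 2.4.6, scipy 1.17.1, pandas 2.3.3, matplotlib 3.10.9 and statsmodels 0.14.6.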

Additional observations from a re-analysis of the deposited data

How the results depend on the processing

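No paired analysis was possible because the table gives 1 value per group, and for the same reason no replicate could be left out. Of 1875 member differences recomputed under the alternatives, 1841 kept their sign and their side of the threshold. Of the 179 differences recomputed, only 2 were called to begin with. For the rest, staying uncalled under a stricter setting was fixed in advance, so that total says little of the calls. Of the 2 calls in muscle, H2-Aa and H2-Eb1 in WT_DR against WT_AL, 0 were left at an FDR of 5% or with a t distribution. There was 1, H2-Eb1, with no minimum FPKM, after centring on the median, or by intervals that do not overlap. With the smaller SE (SD over the square root of the number of libraries) there were 4 calls there, where 6.37% of entries passed. In place of 0, the smaller SE gave 4 of 7 in KO_AL against WT_AL in muscle (3.64% of entries). For KO_DR against WT_AL it gave 4 of 7 in muscle (9.27%) and 1 of 7, H2-Aa, in WAT (9.29%). In liver it gave 3 of 6 in KO_AL against WT_DR (9.99%) and 2 of 6 in KO_DR against KO_AL (4.8%). It also gave 2 for the interaction, both in muscle, and 1 for the tissue difference of an effect. The share of entries for these last tests is not given here. The 97 calls between tissues became 23 with a t distribution, and in each of the 6 comparisons between groups that distribution left 0 calls among the other listed genes, Cd79a, Lep, H2-DMb2 and Lgmn included. Which SE is right was not tested.

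The signs that turned belonged to differences that were not called. After centring on the median these were H2-Eb1 (-0.16) and Cd74 (-0.044) in KO_AL against WT_AL and H2-DMa (-0.077) in KO_AL against WT_DR, all in liver. In brain they were H2-Eb1 in KO_DR against WT_DR (-0.10), H2-DMa in KO_AL against WT_DR (-0.017), Cd74 in KO_DR against WT_AL (-0.15) and the interaction of H2-DMb1 (-0.071, and -0.013 with a pseudocount of 1). In WAT it was H2-Aa in KO_AL against WT_DR (-0.019). Centring subtracts the median of all entries, and no other cause was tested.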
